A study of Mus musculus with 5 samples.

Results

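The HSP70 and HSP110 family is a set of related molecular chaperones, and 10 of its genes were followed here in mice after an ischemic stroke. The genes were Hspa1a, Hspa1b, Hspa1l, Hspa2, Hspa8, Hspa9 and Hspa12a of the HSP70 branch, and Hspa4, Hspa4l and Hsph1 of the HSP110 branch. They were chosen by name, as the rows of the authors' deposited table that carry these symbols, and all 10 were found among its 51912 rows. All 10 also passed the authors' filter on low means, as did 17420 rows in all.

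The sham group held 2 RNA sequencing libraries and the stroke group 3. All animals were of the strain labelled C57BL/6, with C57BL/6J mice as the named source, and no genotype, age or sex was used. The labels give both groups the same ketamine and xylazine doses and the same rectal temperature. For stroke, a filament closed the middle cerebral artery for 30 minutes, and blood flow had to drop by at least 80%. Motor function was examined after 24 hours. The labels name neither the tissue nor the side of the brain nor when it was taken, and nothing says whether each library came from its own animal. All p-values below therefore measure the spread between these libraries only.

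Chaperones of the HSP70 branch bind unfolded stretches of other proteins and release them in a cycle driven by ATP. J-domain proteins deliver the unfolded client and start ATP hydrolysis, and nucleotide exchange factors, HSP110 proteins among them, reset the cycle by removing ADP. Hspa8 encodes HSC70, which cells make all the time, whereas Hspa1a and Hspa1b encode the stress-inducible HSP70. Their transcription is switched on by heat shock factor 1, which binds promoter elements built of repeated GAA and TTC units. In brain tissue, inducible HSP70 is a classical marker of ischemic stress.

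Before the genes are described, 1 feature of the libraries has to be given. The sham libraries differed from each other in tissue content, and are named here by size factor, the authors' measure of relative depth, as the deeper (0.945) and the shallower (0.734). The stroke libraries are lettered A, B and C from the largest size factor (1.16, 1.13 and 1.12). The summed level of 3 hypothalamic neuropeptide genes was 752 and 2.73 normalized reads in the deeper and the shallower sham library and 7.78 to 10.6 in stroke. The summed level of 3 choroid plexus genes was 915, 142 and 134 to 194 in the same order, and that of 5 red blood cell genes 2801, 474 and 67.2 to 230. By the authors' Wald test, 5 of 5 red blood cell genes, 2 of 4 choroid plexus genes (Ttr and Folr1) and 1 of 4 hypothalamic genes (Oxt) were lower in stroke. Acta2 and Tagln, of 4 mural cell genes, were higher, with a summed level of the list of 2364 to 4195 in sham and 3496 to 4647 in stroke. Among 32 tested markers of neurons, astrocytes, oligodendrocytes, microglia, endothelium and neutrophils none passed that test. At an unadjusted p below 0.05, 4 of them were higher and 1 lower, against 10.5% of all tested genes in both directions together. The 5 general neuronal markers had means of 5689 to 65803 normalized reads, so the libraries hold brain RNA rich in neuronal transcripts. The part of these differences in the chaperone values was not tested, and values without each sham library are given for Hspa4l, Hspa8, Hspa9, Hsp90aa1 and Hspd1.

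All values per library are whole reads recovered from the authors' deposited mean, fold change and standard error, divided by the size factor. Fold changes are stroke over sham. Of the 10 genes, 3 were called higher in stroke by the authors' deposited table (adjusted p below 0.05), against 0.775% of all tested genes. None was called lower, against 0.786% of tested genes, and none was lower at an unadjusted p below 0.05. At an unadjusted p below 0.05, 7 of the 10 passed, against 10.5% of all tested genes. All 10 fold changes were positive, as were 47.2% of those tested, and the median log2 fold change of the 10 was 0.92, against -0.02 over all tested genes. In 7 genes every stroke library lay above both sham libraries, which held for 13.0% of the 16896 genes with recovered reads. In this bulk RNA, more RNA per cell and more cells that express a gene cannot be told apart.

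**Figure D1:**
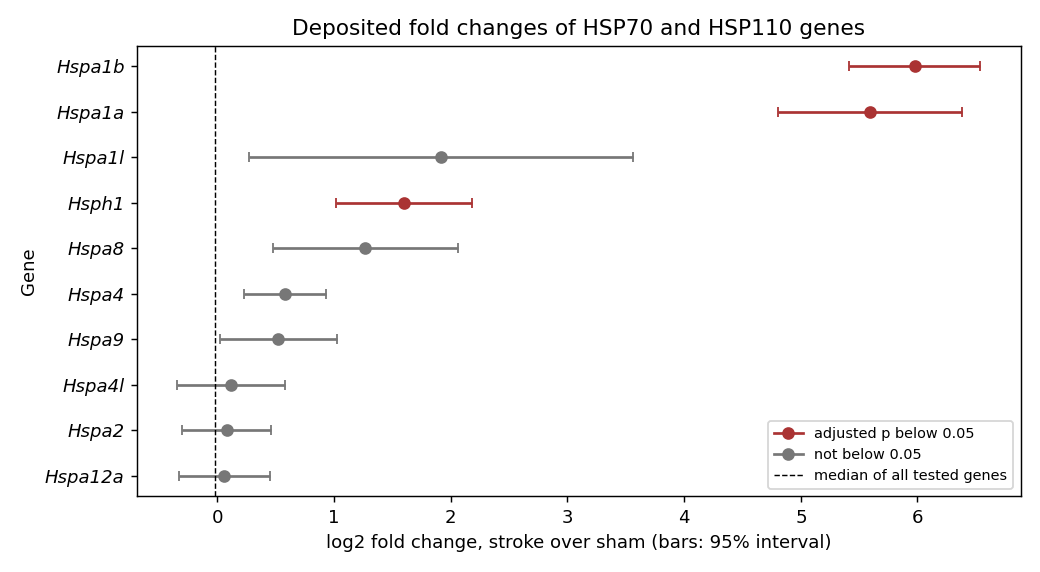
The horizontal axis gives the log2 fold change (stroke over sham) that the authors' deposited table holds for each of the 10 genes, with 95% intervals as bars, red where the adjusted p was below 0.05 and grey otherwise. Hspa1b at 5.98 and Hspa1a at 5.60 stand far to the right of the other 8 genes, and the dashed line marks the median of all tested genes at -0.02.

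Hspa1b and Hspa1a lie in tandem on chromosome 17 of GRCm38, on the minus strand. Hspa1b (ENSMUSG00000090877) spans 34956436 to 34959238 and Hspa1a (ENSMUSG00000091971) spans 34969190 to 34972156, with 9951 bases between them. Hspa1l (ENSMUSG00000007033), at 34972703 to 34979285 on the plus strand, starts 546 bases from the start of Hspa1a and runs away from it. The coding sequences of Hspa1a and Hspa1b were identical at 99.4% of aligned positions. The 250 bases upstream of both genes are shown because these genes rose most and because these stretches are nearly the same. Both sequences are from RefSeq (GRCm38.p6), minus strand, and capitals mark the only match to GAANNTTC, whose first base lies 104 bases before the start.
Hspa1a, chr17:34972157-34972406: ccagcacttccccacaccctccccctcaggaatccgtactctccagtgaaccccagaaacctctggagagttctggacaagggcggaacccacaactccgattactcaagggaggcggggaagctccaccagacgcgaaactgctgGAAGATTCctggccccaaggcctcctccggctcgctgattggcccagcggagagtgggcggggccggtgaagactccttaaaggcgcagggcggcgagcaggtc
Hspa1b, chr17:34959239-34959488: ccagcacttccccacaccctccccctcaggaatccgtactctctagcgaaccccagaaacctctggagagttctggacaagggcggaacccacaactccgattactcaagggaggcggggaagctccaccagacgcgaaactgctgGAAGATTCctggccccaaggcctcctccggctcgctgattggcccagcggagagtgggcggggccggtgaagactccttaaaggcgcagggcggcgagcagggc
The pair of sequences differed at 3 of these 250 bases.

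Heat shock element units were searched as GAANNTTC and TTCNNGAA in windows from 250 bases before to 50 bases after each RefSeq start. Each form reads the same on both strands. Windows were found for 8 of the 10 genes, and none is shown for Hspa8 and Hspa9. Hspa1a, Hspa1b and Hsph1 held a match, and Hspa1l, Hspa2, Hspa4, Hspa4l and Hspa12a did not. Of 32851 RefSeq windows 15.1% held either form, so a match is common. Among listed partner genes with a window 18 of 48 held one in any of their windows. That count is by gene and the 15.1% by window, and some genes have several windows, so they do not compare directly. Hsph1 also held the longer run TTCNNGAANNTTC, and 0.603% of windows held this or its reverse complement GAANNTTCNNGAA. The stretches of the Hsph1 window with its matches are shown as the one member with the longer run, from RefSeq (GRCm38.p6), minus strand, with the matching letters in capitals.
Hsph1 upstream, chr5:149636353-149636382: ttgggtagaatctTTCTCGAAggctcgaga
Hsph1 downstream, chr5:149636287-149636316: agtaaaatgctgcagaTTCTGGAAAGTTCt
The upstream match began 33 bases before the first of the RefSeq starts of Hsph1. The downstream run began 37 bases after that start, and the GAANNTTC match of this window lies inside the run. These are matches of letters and no measurement of binding.

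Hspa1b had 64 and 58 reads in the deeper and the shallower sham library, and 5506, 6180 and 4028 in stroke A, B and C. As normalized reads these were 67.7 and 79.0 in sham and 4759, 5463 and 3608 in stroke, so the stroke libraries were at 4610 ± 936 (SD, n = 3). The lowest stroke library was 45.7-fold above the higher sham library. For Hspa1b the authors' deposited table lists 5.98 ± 0.29 (SE) as log2 fold change with an adjusted p of 1.72e-92, which is 63.0-fold with a 95% interval of 42.7 to 93.0. This was the smallest p-value of all tested genes by the authors' Wald test.

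Hspa1a had 81 and 47 reads in the sham libraries, and 4735, 5464 and 2198 in stroke A, B and C. Its normalized reads were 85.7 and 64.0 in sham and 4093, 4830 and 1969 in stroke, or 3631 ± 1486 (SD, n = 3). Again the groups were far apart, and the lowest stroke library was 23.0-fold above the higher sham library. The authors' deposited table gives Hspa1a a log2 fold change of 5.60 ± 0.40 (SE) and an adjusted p of 5.19e-40, or 48.3-fold with an interval of 28.0 to 83.5. Stroke C was the lowest of the stroke libraries in both genes, and more so in Hspa1a, where the highest stroke library was 2.45-fold above it, against 1.51-fold in Hspa1b.

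**Figure D2:**
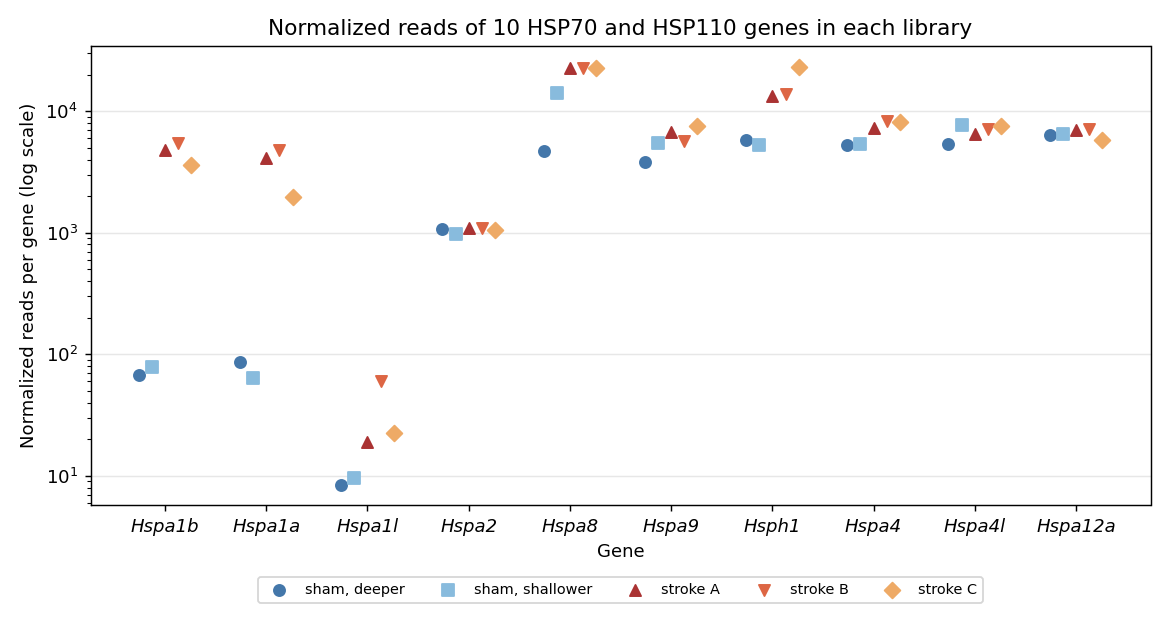
Normalized reads (vertical axis, log scale) of each of the 10 genes (horizontal axis) in the 2 sham libraries (blue) and the 3 stroke libraries (red to orange). For Hspa1b and Hspa1a the sham points lie between 64.0 and 85.7 and the stroke points between 1969 and 5463, and for Hspa8 the sham points lie 3.00-fold apart.

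Reads of this pair are hard to assign to 1 copy. Of the 50-base stretches of the Hspa1a transcript 66.3% also occurred, on either strand, in transcripts of other genes, most of them in Hspa1b. For Hspa1b this was 62.3%. How the counting treated such reads is not given here. The sum of both genes does not depend on how reads were split within the pair, and was 153 and 143 normalized reads in sham and 8851, 10294 and 5577 in stroke. Hspa1a took 55.9% of the pair's reads in the deeper sham library (exact 95% binomial interval 47.4 to 64.1) and 44.8% in the shallower (35.0 to 54.8). In stroke A and B it took 46.2% (45.3 to 47.2) and 46.9% (46.0 to 47.8), and in stroke C 35.3% (34.1 to 36.5). The share in stroke C was thus below that of the other stroke libraries by more than counting error. Counting error is all that these intervals cover. The sham intervals overlapped each other. That of the deeper sham library overlapped stroke B but neither stroke A nor stroke C, and that of the shallower overlapped all stroke libraries.

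An annotated gene on the opposite strand, Gm20481 (chromosome 17, 34969912 to 34972136, plus strand), lies within Hspa1a. It had 0 reads in both sham libraries and 47, 56 and 19 in stroke A, B and C, and the authors' deposited table lists an adjusted p of 0.00248 for it. Its order over the stroke libraries was the same as that of Hspa1a. The strand setting of the counting is not given here, so reads of Gm20481 and Hspa1a cannot be told apart. Of 5 tested genes near the cluster on chromosome 17, none passed the authors' Wald test and none did at an unadjusted p below 0.05. In the authors' deposited table their log2 fold changes were 0.34 for Lsm2, 0.11 for Vars, -0.33 for Vwa7, -0.01 for Neu1 and 0.17 for Ehmt2, and Slc44a4 was too low to be tested.

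Hspa1l encodes a close relative of the inducible pair that is best known from male germ cells, and its coding sequence was 82.9% identical to that of Hspa1a. It had 8 and 7 reads in sham and 22, 68 and 25 in stroke A, B and C. All stroke libraries lay above both sham libraries, but stroke B was 3.16-fold above stroke A. Hspa1l did not pass, with 1.91 ± 0.84 (SE) as log2 fold change and an adjusted p of 0.336 by the authors' deposited table. Of the 50-base stretches of Hspa1l 71.4% lay in transcripts of other genes, and all of these in Gm10501, an antisense gene at 34976899 to 34981788 that overlaps it. Gm10501 had 186 and 125 reads in sham and 186, 170 and 185 in stroke, and -0.21 as log2 fold change (adjusted p = 0.926) by the authors' deposited table. Of 5 male germ cell markers Prm2, Tnp1 and Acrv1 were at 0 in all libraries, and Prm1 and Ldhc had means of 0.177 and 0.385 normalized reads.

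The HSP110 proteins Hsph1, Hspa4 and Hspa4l exchange nucleotides on HSP70 and hold unfolded proteins in solution. Hsph1 (ENSMUSG00000029657, chromosome 5, 149614287 to 149636376), which encodes HSP105, was the third called gene. Its normalized reads were 5798 and 5267 in sham and 13397, 13798 and 23151 in stroke A, B and C, or 16782 ± 5519 (SD, n = 3) in stroke. The sham libraries agreed within 1.1-fold, and the lowest stroke library was 2.31-fold above the higher of them. Stroke C, the lowest for the inducible pair, was the highest for Hsph1. Hsph1 ranked 27 of all tested genes by p-value in the authors' deposited table, with 1.60 ± 0.30 (SE) as log2 fold change, or 3.03-fold (2.03 to 4.54), and an adjusted p of 4.67e-05. When tested against a fold of 1.5 in place of no change, its adjusted p was 0.159, and by limma-trend on the recovered reads 0.293.

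Hspa4 (ENSMUSG00000020361, chromosome 11, 53259814 to 53300457) had 5237 and 5337 normalized reads in sham and 7305, 8288 and 8155 in stroke, or 7916 ± 533 (SD, n = 3). The groups did not overlap, and the lowest stroke library was 1.37-fold above the higher sham library. By the authors' deposited table Hspa4 fell just outside the threshold, with an adjusted p of 0.0629 and 0.58 ± 0.18 (SE) as log2 fold change, or 1.5-fold (1.17 to 1.91). It passed with fold changes recentred on the median of tested genes (adjusted p = 0.0447). Of all tested genes, that setting called 158 higher, against 135 by the deposited test. Hspa4l (ENSMUSG00000025757, chromosome 3, 40744495 to 40796103), whose coding sequence was 66.8% identical to that of Hspa4, had 5383 and 7698 normalized reads in sham and 6541, 7147 and 7588 in stroke. All stroke libraries fell between the sham libraries, and the authors' deposited table gives 0.12 ± 0.23 (SE) as its log2 fold change (adjusted p = 0.959). The sign for Hspa4l turned without the deeper sham library, where its log2 fold change was -0.12 by the Wald test with held dispersions, and without the shallower it was 0.40.

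Hspa8 (ENSMUSG00000015656, chromosome 9, 40800984 to 40810087) had the highest mean of the 10 genes over all libraries, although in the deeper sham library Hspa12a, Hsph1, Hspa4l and Hspa4 had more normalized reads. Its normalized reads were 4702 and 14091 in the deeper and the shallower sham library and 22807, 22510 and 22450 in stroke A, B and C. The stroke libraries agreed within 1.02-fold, at 22589 ± 191 (SD, n = 3), while the sham libraries were 3.00-fold apart. Among 4808 recovered genes with a mean of at least 1000, 1.35% had sham libraries at least that far apart, and the median gene had them 1.36-fold apart. The lowest stroke library of Hspa8 was 1.59-fold above the higher sham library. All stroke libraries lay above both sham libraries for 16.5% of these abundant genes.

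Hspa8 did not pass the authors' Wald test, and its fold of 2.40 carried a wide interval (1.39 to 4.16). The size of that fold rested on the choice of sham library. Without the shallower sham library the log2 fold change was 2.26 (adjusted p = 0.0061 by a Wald test with held dispersions), and 0.550% of recovered genes were called higher. Without the deeper it was 0.68 (adjusted p = 0.558), where 0.408% of recovered genes were called higher. Hspa8 also has many processed copies in the genome, and 74.8% of its 50-base stretches occurred in transcripts of 13 other genes, most often Gm15459. Gm15459 had 12 and 159 reads in the deeper and the shallower sham library and 347, 344 and 307 in stroke, so the deeper sham library was lowest and all stroke libraries were above both sham libraries, as for Hspa8. The authors' deposited table lists an adjusted p of 0.837 for Gm15459.

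**Figure D3:**
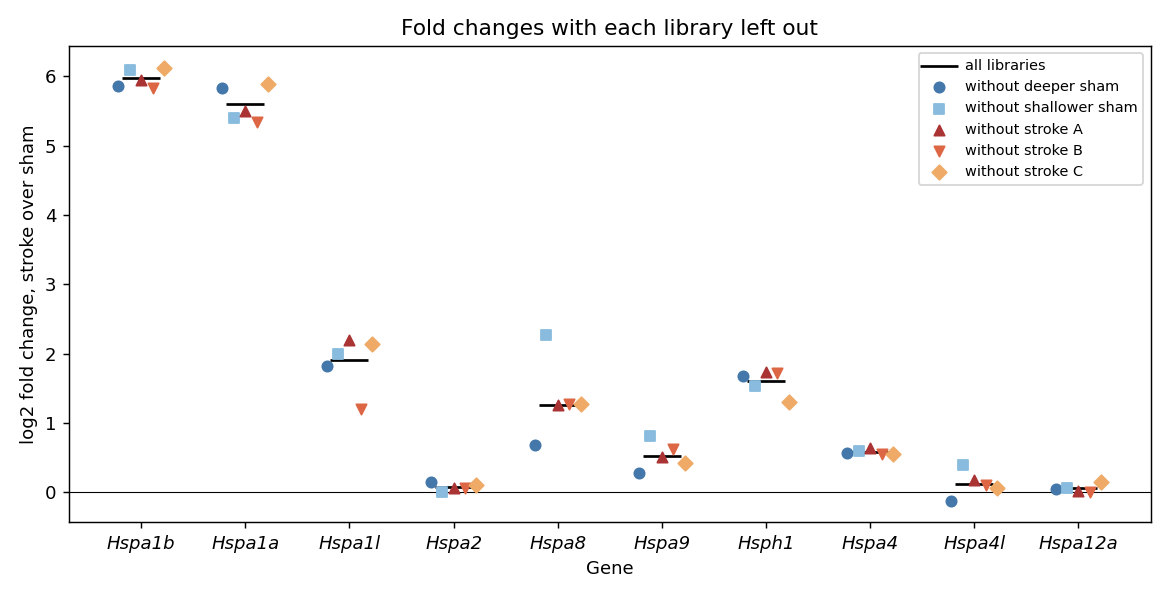
Log2 fold change of stroke over sham (vertical axis) of each of the 10 genes (horizontal axis) with all libraries (black bar) and with each library left out in turn (points), from a negative binomial fit to recovered reads with the dispersion of each gene held. Hspa8 moved between 0.68 and 2.26 with the sham library that was left out, whereas Hspa1b stayed between 5.84 and 6.13 and Hsph1 between 1.3 and 1.74.

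None of the other HSP70 genes passed the test. Hspa9 (ENSMUSG00000024359, chromosome 18, 34937414 to 34954357), which encodes the mitochondrial HSP70 mortalin, had 3801 and 5462 normalized reads in sham and 6705, 5663 and 7584 in stroke. The groups did not overlap, but stroke B was only 1.04-fold above the shallower sham library. Hspa9 did not pass, with 0.52 ± 0.25 (SE) as log2 fold change and an adjusted p of 0.427 in the authors' deposited table. By the Wald test with held dispersions its log2 fold change was 0.28 without the deeper sham library and 0.81 without the shallower, and it passed in neither.

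Hspa2 (ENSMUSG00000059970, chromosome 12, 76404176 to 76406938), an HSP70 gene essential for sperm development that is also read in brain, had 1080 and 974 normalized reads in sham and 1102, 1101 and 1051 in stroke. These 5 values lay close together and the groups overlapped. In the authors' deposited table Hspa2 has a log2 fold change of 0.08 with a 95% interval of -0.30 to 0.46 (adjusted p = 0.972). Hspa12a (ENSMUSG00000025092, chromosome 19, 58795750 to 58943654), a distant relative with an atypical ATPase domain, had 6344 and 6443 normalized reads in sham and 7039, 7165 and 5776 in stroke. Stroke C lay below both sham libraries and the other stroke libraries above them. For Hspa12a the authors' deposited table gives 0.06 as log2 fold change, with an interval of -0.33 to 0.45 (adjusted p = 0.984), and limma-trend with libraries scaled by total recovered reads gave -0.01.

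Levels of different genes were compared as normalized reads per kilobase of the longest transcript. Hspa1a, Hspa1b, Hspa1l and Hspa8 share most of their 50-base stretches, on either strand, with other transcripts. Hspa2, Hspa4, Hspa12a and Hsph1 share none. For Hspa1l all of these stretches lie in Gm10501, the overlapping gene on the opposite strand. How reads of shared stretches were counted is not given here. The levels, sums and ratios of genes with many shared stretches may therefore not compare with those of other genes, here and below. In sham the mean levels per kilobase ran from Hspa8 (3925) over Hspa9 (1519), Hsph1 (1455), Hspa4 (1145), Hspa12a (1115), Hspa4l (690) and Hspa2 (407) to Hspa1b (26.2), Hspa1a (25.2) and Hspa1l (3.64). Hspa9 and Hsph1 overlapped in the sham libraries, as did Hspa1b and Hspa1a, and the other neighbours in this order did not. In stroke the order of mean levels per kilobase was Hspa8 (9436), Hsph1 (4414), Hspa9 (2181), Hspa4 (1714), Hspa1b (1645), Hspa1a (1224), Hspa12a (1162), Hspa4l (748), Hspa2 (429) and Hspa1l (13.7). Hspa4, Hspa1b and Hspa1a each overlapped the next gene in that order in the stroke libraries, and the other neighbours did not. Per kilobase of transcript the inducible pair thus went from levels far below Hspa2 to mean levels between those of Hspa4 and Hspa12a. By mean level per kilobase of coding sequence Hspa8 remained first in both groups and Hsph1 second in stroke, while Hspa12a was second in sham. In the deeper sham library, however, Hspa12a (3133) was above Hspa8 (2426). On that scale the means of Hspa1b (2394) and Hspa1a (1888) were in stroke above Hspa2 (571) but below Hspa12a (3289), Hspa4 (3134) and Hspa4l (2821). The highest stroke library of Hspa1b (2837) was above the lowest of Hspa4l (2602).

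The 5 cytosolic HSP70 genes (Hspa8, Hspa2, Hspa1a, Hspa1b and Hspa1l) were also added up per kilobase. Their sum was 2448 and 6325 in the deeper and the shallower sham library and 13048, 13440 and 11753 in stroke A, B and C. Hspa1a and Hspa1b together made up 2.17% and 0.787% of that sum in sham, and 23.6%, 26.6% and 16.6% in stroke. Hspa8 remained the largest part, with 80.2% and 93.1% in sham and 70.0% to 79.8% in stroke. For each read of the inducible pair there were 30.6 and 98.5 reads of Hspa8 in the deeper and the shallower sham library, but 2.58, 2.19 and 4.03 in stroke A, B and C.

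The 3 HSP110 genes summed to 3227 and 3353 normalized reads per kilobase in sham and 5796, 6178 and 8655 in stroke. Hsph1 made up 47.3% and 41.3% of that sum in sham and 60.8%, 58.7% and 70.4% in stroke. The share of Hspa4l was 17.6% and 24.2% in sham and 9.25% to 12.2% in stroke, while its own level did not pass the test. Per kilobase of coding sequence Hsph1 made up 34.8% and 28.3% in the deeper and the shallower sham library, and 46.7% to 59.0% in stroke. On that scale Hspa4l made up 33.1% and 42.4% in sham, the largest part in the shallower sham library, and 19.8% to 24.8% in stroke. In stroke C the ratio of Hsph1 to Hspa4 was 2.84, against 1.83 and 1.66 in stroke A and B and 1.11 and 0.987 in sham.

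**Figure D4:**
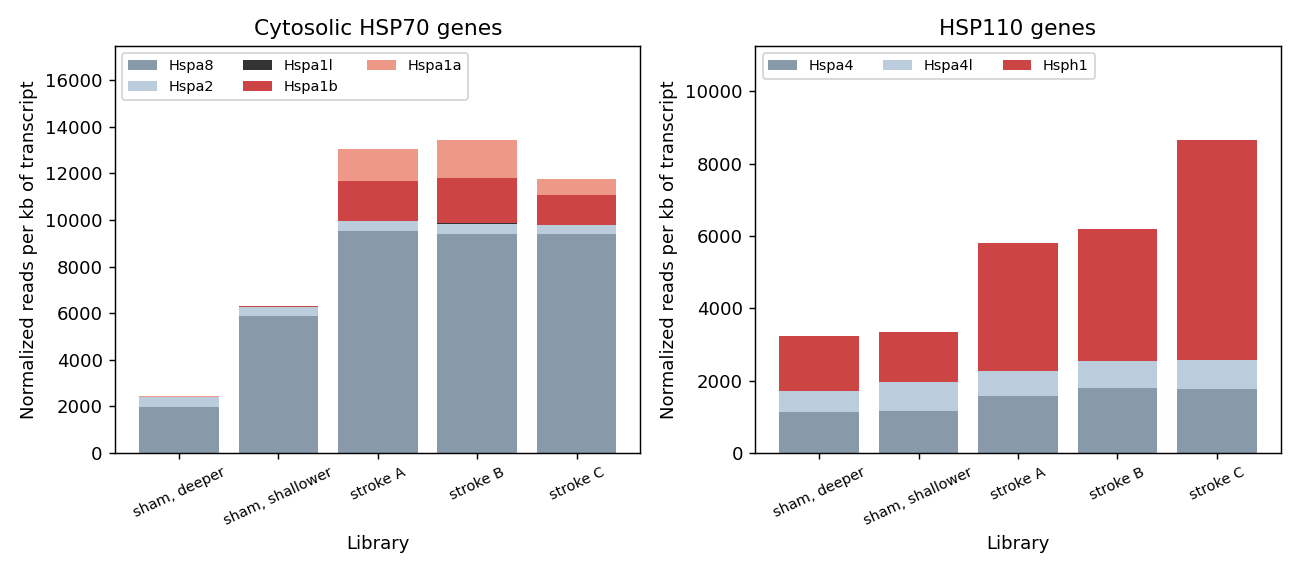
Summed normalized reads per kilobase of transcript (vertical axes) of the 5 cytosolic HSP70 genes (left) and the 3 HSP110 genes (right) in each library (horizontal axes), with the part of each gene stacked. Hspa1a and Hspa1b are close to invisible in sham and make up 16.6% to 26.6% of the cytosolic HSP70 bars in stroke, and Hsph1 makes up 58.7% to 70.4% of the HSP110 bars in stroke, against 47.3% and 41.3% in sham.

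Genes of the HSP70 system and of related chaperone families were taken from 7 lists. Of 63 listed genes 62 were tested, and 3 of these rose and none fell by the authors' Wald test, against 0.775% and 0.786% of all tested genes. At an unadjusted p below 0.05 the counts were 12 higher and 0 lower, against 10.5% of all tested genes in both directions together. Limma-trend called none in either direction, and of all recovered genes it called 0.0237% higher and 0.00592% lower. The median log2 fold change of the 62 was 0.26, against -0.02 over all tested genes. Of 60 with recovered reads, 26 had every stroke library above both sham libraries, against 13.0% of all recovered genes, and 1 (Dnajc21) had every stroke library below, against 11.3%.

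J-domain cochaperones, which deliver clients to HSP70, had 1 of 13 tested genes higher and none lower, with a median log2 fold change of 0.31. That gene was Dnajb1, which encodes HSP40, the classical partner of inducible HSP70. Its normalized reads were 1219 and 1044 in sham and 4238, 2500 and 2640 in stroke A, B and C. The authors' deposited table gives Dnajb1 1.47 ± 0.30 (SE) as log2 fold change and an adjusted p of 0.000392. Dnajc6 and Dnajc5, the most abundant of the list, had log2 fold changes of 0.07 and 0.17 in the authors' deposited table. Dnajc6 encodes auxilin, which brings HSC70 to clathrin-coated vesicles, and Dnajc5 encodes cysteine string protein of synaptic vesicles.

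Among 9 nucleotide exchange factors outside HSP110 none was called. At an unadjusted p below 0.05, 1 was higher, against 10.5% of all tested genes in both directions together. Bag4 and Bag1, the most abundant, had log2 fold changes of -0.17 and 0.36 in the authors' deposited table. Bag3 encodes the exchange factor of protein clearance under stress, and was looked up for its value. It had 342 and 125 normalized reads in sham and 352, 583 and 469 in stroke (adjusted p = 0.345 by the authors' deposited table). Of the 14 genes of HSP90 and its cochaperones, which take over clients from HSP70, none was called. At an unadjusted p below 0.05, 3 of the 14 were higher, against the same 10.5%. Hsp90aa1, the stress-responsive form, had 3541 and 13004 normalized reads in the deeper and the shallower sham library and 15813, 16776 and 19349 in stroke. As with Hspa8, the deeper sham library was the low one. By limma-trend the log2 fold change of Hsp90aa1 was 0.41 without the deeper sham library (adjusted p = 0.150) and 2.28 without the shallower (adjusted p = 0.00122). Hsp90ab1, the constitutive form, had 0.44 ± 0.18 (SE) as log2 fold change (adjusted p = 0.289) by the authors' deposited table.

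The heat shock factor list held 4 genes, of which Hsbp1 encodes a heat shock factor binding protein and not a factor. None of the 4 was called by the Wald test or had an unadjusted p below 0.05. In the authors' deposited table the log2 fold change of Hsf1, the main activator of inducible HSP70 genes, was -0.01. Those of Hsf2, Hsf4 and Hsbp1 were -0.20, 0.00 and 0.11. Hsf1 had 728 and 331 normalized reads in sham and 511, 515 and 557 in stroke, so all stroke libraries lay between the sham libraries. These are transcript levels, and the activity of heat shock factor proteins was not measured.

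Of 5 HSP70 family genes that were not among the 10, Hspa5 was called higher. Hspa5 encodes BiP, the HSP70 of the endoplasmic reticulum and a target of the unfolded protein response. Its normalized reads were 4486 and 4405 in sham and 8395, 7082 and 6428 in stroke. The authors' deposited table gives Hspa5 0.72 ± 0.21 (SE) as log2 fold change and an adjusted p of 0.0403. This call was lost when p-values were adjusted over every gene with a p-value. Hyou1, the HSP110 protein of the same compartment, had a log2 fold change of 0.20 in the authors' deposited table, and Hspa12b, Hspa13 and Hspa14 had 0.00, 0.10 and 0.29.

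Small heat shock proteins hold unfolded proteins without ATP. Of 7 tested genes Hspb1 alone was called, at 2.60 ± 0.48 (SE) on the log2 scale with an adjusted p of 4.51e-05 in the authors' deposited table, and every stroke library of Hspb1 lay above both sham libraries. Of the uncalled genes in that table Hspb7 had 1.90 (SE 1.02), Hspb3 0.92, Hspb2 0.69, Hspb8 0.18, Cryab, the most abundant of the list, 0.05 and Hspb6 -0.39 as log2 fold changes, and Cryaa was too low to be tested. No chaperonin of 10 was called. At an unadjusted p below 0.05, 3 were higher, against 10.5% of all tested genes in both directions together. Every stroke library lay above both sham libraries for 8 of these 10, against 13.0% of all recovered genes. The most abundant were Tcp1, with 3522 and 3510 normalized reads in sham and 4592, 4364 and 4672 in stroke (adjusted p = 0.394 in the authors' deposited table), and Cct6a, with a log2 fold change of 0.21 there.

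Hspd1 and Hspe1 encode the mitochondrial chaperonin and its lid and share a promoter region, and were picked out after their values were seen. Hspd1 had 1007 and 2620 normalized reads in the deeper and the shallower sham library and 2876, 3131 and 5190 in stroke A, B and C. Hspe1 had 186, 413, 467, 572 and 849 in the same order. By limma-trend the log2 fold change of Hspd1 was 0.46 without the deeper sham library (adjusted p = 0.327) and 1.84 without the shallower (adjusted p = 0.0263). In both genes the deeper sham library was lowest and stroke C highest, as for Hsp90aa1. Neither passed the authors' Wald test, with adjusted p-values of 0.264 and 0.215 in the authors' deposited table.

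**Figure D5:**
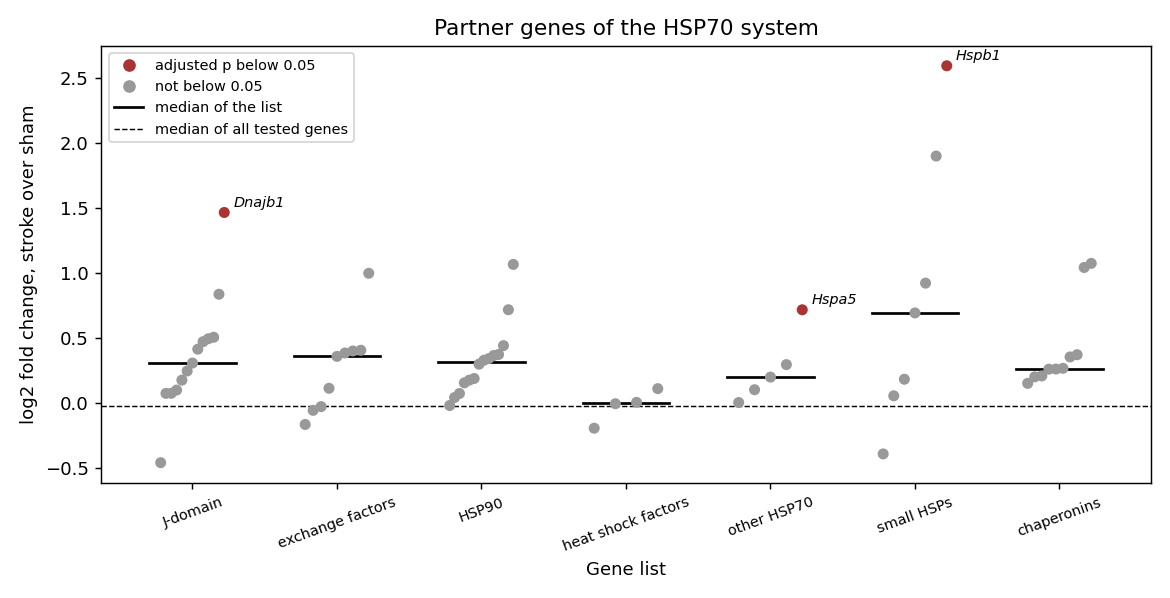
The vertical axis gives the log2 fold change (stroke over sham) in the authors' deposited table for every tested gene of the 7 partner lists (horizontal axis), red where the adjusted p was below 0.05, with a bar at the median of each list. Dnajb1, Hspa5 and Hspb1 are the called genes, and the medians lie between 0.00 for the heat shock factor list and 0.69 for small heat shock proteins.

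How firmly each gene was called depended on the test. With each library left out in turn and dispersions held, Hspa1b, Hspa1a and Hsph1 were called each time, with log2 fold changes of 5.33 to 5.89 for Hspa1a and an adjusted p of at most 0.0157 for Hsph1. Of all recovered genes 0.408% were called higher without the deeper sham library, 0.550% without the shallower, 0.468% without stroke A, 0.408% without stroke B and 0.574% without stroke C. Limma-trend, which estimates the spread from the recovered reads of these 5 libraries, called only 4 genes higher (0.0237% of those tested) and 1, Pygl, lower (0.00592%), and 1248 genes had an unadjusted p below 0.05. Hspa1b (adjusted p = 0.000311) and Hspa1a (adjusted p = 0.00707) were among the 4, beside Atf3 and Lars2. With limma-voom Hspa1b was the only gene called higher (adjusted p = 0.0064), and Hspa1a had an adjusted p of 0.105. With Hspa1a and Hspa1b added up to 1 gene, limma-trend gave a log2 fold change of 5.74 (adjusted p = 0.00145). With each library left out in turn, limma-trend called 8.78% of recovered genes higher and 8.95% lower without the deeper sham library, where Hsph1, Hspa8 and Hspa4 passed beside the inducible pair. It called 1.87% higher without the shallower sham library, where Hspa8 passed and Hsph1 did not. Without stroke A it called 0.00592% higher, which was Hspa1b alone, and without stroke B or stroke C 0.0118% each, which were Hspa1b and Hspa1a.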

How the data were processed

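Per the labels' protocols, KAPA stranded mRNA libraries were made from RNA purified with TRIzol and RNeasy. Without roles, GRCm38, featureCounts 1.5.1, STAR 2.5.2b, FastQC and DESeq2 1.14.1 are listed by the submitters' processing notes. The sources used here do not give the annotation release, the strand setting or the handling of multimapping reads. Per the file headers, the authors deposited 1 DESeq2 results table with no values per library: a mean signal (normalized reads), a log2 fold change and its standard error, the Wald statistic as a score, its p-value and the adjusted p-value. That Wald test, fitted by the authors on all 5 libraries without covariates, is the main test here, at an adjusted p below 0.05.

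Size factors were read from genes with 1 read in 1 library. They do not tell which sham library carries which label number. Whole reads were searched for each gene, and kept where 1 set of 5 numbers alone gave the deposited mean, log2 fold change (to within 7e-10) and dispersion (to within 1e-06 on the log scale). This gave reads for 16896 of 17420 tested genes (97.0%), among them all 10 chaperone genes. All tested genes with a mean up to 10000 were tried, and above that only listed ones. Reads of Gm20481 came from a separate search limited to few sham reads. That search allowed 1e-06 on the log2 fold change and did not check that 1 set alone fitted. Recovered reads summed to 12234741 to 20406256 per library, which is not the full depth because most genes above that mean are missing. On simulated data the search recovered the right reads for 297 of 300 genes. These were drawn from genes with lower means than Hspa8, Hsph1, Hspa4l, Hspa4, Hspa12a and Hspa9, so this check does not cover those genes. In simulated reads limma-trend called 8 of 100 genes changed 2-fold and 80 of 100 changed 8-fold, with 5 false calls. A gene without a limma-trend call may thus still have changed. Python 3.11.15 (numpy 2.4.6, scipy 1.17.1, numba 0.67.0), R 4.3.3 and limma 3.58.1 were used. Limma-trend ran on log2 of normalized reads plus a pseudocount of 1. For values without each library, a negative binomial Wald test held each gene's dispersion. Benjamini-Hochberg adjustment ran over all genes tested. The planned count tests were replaced by these after seeing that the file holds no counts, since recovered reads are an inference.

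Levels per kilobase used the longest transcript of the GRCm38 annotation. Protein sequences were not used here, so identity is of aligned coding bases. The 10 genes, the 7 partner lists, the list of chromosome 17 neighbours, the 13 marker lists and the tests were chosen with earlier results of these data known. Of each partner list, up to 3 called genes by adjusted p and up to 2 uncalled genes by mean were named, and every gene of lists with 8 or fewer tested members. Bag3, Dnajc21, Hspd1, Hspe1, Gm20481, Gm10501, Gm15459, Atf3, Lars2 and Pygl were named after their values were seen.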

Additional observations from a re-analysis of the deposited data

How the results depend on the processing

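No paired analysis was possible because the recovered libraries cannot be tied to the labels' replicate numbers. The planned edgeR and DESeq2 fits were not run, since the deposited file holds no counts, and limma and the Wald test with held dispersions were chosen in their place after seeing the data. Of the 10 genes, 3 were called higher with p-values adjusted over every gene with a p-value or over genes at 5 CPM or more, with recentring on the median of the latter, and by the Wald test with held dispersions on all libraries. Recentring on the median of tested genes gave 4 (Hspa4 as well), and testing against a fold of 1.5 gave 2 (without Hsph1). The Wald test with held dispersions gave 3 with each library left out, except 4 without the shallower sham library (Hspa8 as well). With a t distribution of 3 degrees of freedom for the deposited statistic 0 of the 10 were called, because the smallest adjusted p any gene could reach was 0.999. With limma-voom 1 was called. With limma-trend 2 were called, and with each library left out 1 to 5, the lowest without stroke A (Hspa1b alone, with Hspa1a at an adjusted p of 0.095) and the highest without the deeper sham library, where Hsph1 (adjusted p = 0.0162), Hspa8 (0.0275) and Hspa4 (0.0456) passed as well. Limma-trend then called 8.78% of all genes higher, and 1.87% without the shallower sham library, where Hspa8 passed and Hsph1 did not (adjusted p = 0.0535). None of the 10 was called lower in any setting. Of partner genes called higher, 1 was left against a fold of 1.5, 0 with the t distribution, 0 with limma-trend in each of its settings and 0 with limma-voom, and 0 to 14 with each library left out, and 0 to 3 were then called lower. The partner counts with a library left out include limma-trend without the deeper sham library, which called 8.78% of all genes higher and 8.95% lower. Only 1 sham library was left there, so no conclusion about partner genes is drawn from these counts. With each library left out the log2 fold change of Hspa4l ran from -0.12 (without the deeper sham library, by both tests) to 0.40, and that of Hspa12a from -0.0039 (without stroke B, by limma-trend) to 0.15. With scaling by total reads that of Hspa12a was -0.012. In the other settings no gene changed its sign. Over all genes, the deposited test called 135 higher and 137 lower, against 109 and 33 when only genes at 5 CPM or more were adjusted, 99 and 88 over every gene with a p-value, and 17 and 10 against a fold of 1.5. Recentring called 158 higher and 137 lower on the median of tested genes, and 119 and 141 on that of genes at 5 CPM or more. The Wald test with held dispersions on all libraries called 130 higher and 124 lower. Where 1 sham library was left out, the other is assumed to vary as the stroke libraries do. Hspa1l, with 7 and 8 sham reads, is the gene for which depth limits the estimate. The causes of these differences were not tested.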
